A study of Homo sapiens with 12 samples.

Results

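A total of 45 genes of the NF-kB pathway and its cytokine, chemokine and protease outputs were followed across 12 RNA sequencing libraries of hTERT-RPE1 cells, out of 53361 genes in the deposited table. They were chosen by symbol and not by their values, and where a symbol had several rows the row with the highest mean over the 12 libraries was taken. By role they were 12 interleukins and growth cytokines, 15 chemokines, 11 NF-kB subunits and feedback genes, 4 adhesion, prostaglandin and antioxidant effectors, and 3 secreted proteases. hTERT-RPE1 is a line derived from human retinal pigment epithelium and kept dividing by telomerase. Each of 4 groups had 3 libraries, and all 4 came from this line. In the reversine group cells received 0.5 µM reversine for 24 h, were washed, and were harvested 48 h later. The BafA1 group received 0.1 µM bafilomycin A1 for 6 h, and the MG132 group received 1 µM MG132 for 24 h. Control cells were untreated. The labels name no vehicle, no time in culture for the controls, and no separate cultures within a group, so the p-values rest on the spread among libraries alone, which may be technical. Dose and time differed between the treatments, and they cannot be told apart from the compound.

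Reversine inhibits MPS1, a kinase of the spindle checkpoint, so that daughter cells inherit too many or too few chromosomes. Bafilomycin A1 inhibits the proton pump of the lysosome and so blocks the last step of autophagy, the process named in the study's title, and MG132 inhibits the proteasome. NF-kB is a family of transcription factors held in the cytoplasm by inhibitor proteins (IκB). Signals from cytokine receptors or from damaged DNA mark IκB for destruction by the proteasome, and the freed RELA complex enters the nucleus. It then switches on cytokines and chemokines, and also its own brakes. A second branch runs through RELB and NFKB2, whose long form is trimmed by the proteasome to its active form. Retinal pigment epithelium is known to secrete IL8, CCL2 and IL6 when it is exposed to inflammatory cytokines.

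The recognition sites of NF-kB and of AP-1, a factor of the FOS and JUN families, are shown here for the chemokines and cytokines that the results turn on. The sequences are from RefSeq (GRCh38.p14) and cover the 150 bases before the annotated start, read 5′ to 3′ on the strand of the gene. Capitals mark GGAATTTCC or the 10-letter consensus of NF-kB around it, and TGACTCA or its reverse complement for AP-1. Of these genes, CXCL8 is the gene listed as IL8, and CXCL1 and CXCL6 are shown as weakly detected neighbours of CXCL2 and CXCL3 in the same cluster on chromosome 4. IL6 holds the consensus without GGAATTTCC, and IL11 holds the AP-1 site alone.
CXCL8, chr4:73740419-73740568, plus strand: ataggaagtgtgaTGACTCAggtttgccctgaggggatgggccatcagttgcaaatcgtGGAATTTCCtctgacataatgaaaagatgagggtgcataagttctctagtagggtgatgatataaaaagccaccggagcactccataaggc
CXCL2, chr4:74099196-74099345, minus strand: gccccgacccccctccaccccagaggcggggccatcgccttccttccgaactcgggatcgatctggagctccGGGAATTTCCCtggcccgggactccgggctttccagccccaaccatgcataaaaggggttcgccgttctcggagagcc
CXCL3, chr4:74038690-74038839, minus strand: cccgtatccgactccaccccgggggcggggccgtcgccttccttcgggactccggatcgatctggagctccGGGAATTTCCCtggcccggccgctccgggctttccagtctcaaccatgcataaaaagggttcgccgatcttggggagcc
CXCL1, chr4:73869243-73869392, plus strand: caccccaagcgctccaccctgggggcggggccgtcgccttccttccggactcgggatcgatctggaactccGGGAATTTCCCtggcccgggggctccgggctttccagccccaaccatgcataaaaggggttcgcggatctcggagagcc
CXCL6, chr4:73836528-73836677, plus strand: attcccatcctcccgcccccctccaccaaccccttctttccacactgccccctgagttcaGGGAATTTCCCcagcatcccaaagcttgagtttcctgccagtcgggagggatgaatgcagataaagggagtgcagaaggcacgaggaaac
IL6, chr7:22727050-22727199, plus strand: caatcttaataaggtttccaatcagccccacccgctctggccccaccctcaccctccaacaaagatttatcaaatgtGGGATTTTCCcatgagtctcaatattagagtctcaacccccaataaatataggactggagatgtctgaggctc
IL11, chr19:55370464-55370613, minus strand: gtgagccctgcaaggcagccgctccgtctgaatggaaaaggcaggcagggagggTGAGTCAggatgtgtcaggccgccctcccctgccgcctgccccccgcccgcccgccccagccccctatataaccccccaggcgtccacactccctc

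GGAATTTCC began 78 bases before the start in CXCL1 and CXCL3, 77 in CXCL2, 89 in CXCL6 and 91 in CXCL8. In a window of 250 bases before to 50 bases after the start, 34 of the 45 members had a RefSeq sequence, and 13 of them (38.2%) held GGAATTTCC on either strand, against 162 of 35116 promoters (0.461%). TGACTCA was in 5 of the 34 members (14.7%) and in 4.949% of all promoters, and the 10-letter consensus, which overlaps GGAATTTCC, was in 18 members (52.9%) and in 5.909% of all promoters. GGAATTTCC was in 4 of the 9 reversine-raised members with a sequence (CXCL8, CXCL2, CXCL3 and NFKBIZ), and also in 7 of the 11 with a sequence that were too low to be tested. The members were listed as genes of this pathway and include close paralogs of one cluster, so a high share came with the choice of list. Members were counted by symbol and the background by promoter. A match is a description of the letters and not evidence of a bound factor.

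Values are the deposited numbers, treated as FPKM, which scale the fragments of a gene by its transcript length and by the reads mapped in the library. Read counts are unknown. Differences are on the scale of log2(FPKM + 1), which understates changes of weakly detected genes, and the 30712 genes that reached 1 FPKM in 3 or more libraries were tested with limma in one fit of the 4 groups. A gene was called at a Benjamini-Hochberg adjusted p under 0.05 over all genes tested. The depth of a library relative to the deepest, estimated from genes without reads, was 0.76 to 0.95 after reversine, 0.63 to 0.78 after BafA1, 0.73 to 0.89 after MG132 and 0.83 to 1 in controls. Relative to the mean over the libraries, 4 libraries (reversine 1, BafA1 3, MG132 2 and MG132 3) gave lower values for transcripts richer in GC, with slopes of -0.436 to -0.085 log2 units per 10 percentage points, and the other 8 gave higher ones. Control 3, MG132 2 and MG132 3 listed 9118 to 10150 genes at 0 and the other libraries at most 4240. Of 12 markers of retinal pigment epithelium, 5 (RPE65, TYR, TYRP1, TTR and LRAT) were at the floor of the table, the value of genes without reads, in each of 9 libraries judged. Of 8 blood cell markers, 5 (among them PTPRC, ITGAM, CD3E and HBB) were at the floor in the 9 libraries used to judge it, as were PECAM1, CDH5 and VWF of endothelium. In MG132 2 and MG132 3, which were not among the 9, PTPRC was at 13.2 and 8.31 FPKM, against 3.80 in MG132 1 and 3.12 to 4.46 in controls, and HBB at 3.37 and 2.73, against 1.63 in MG132 1, and the part of these markers in the MG132 results was not tested. The summed level of the blood cell markers other than CD68 was 8.5 to 11.5 FPKM after reversine, 10.6 to 13.0 after BafA1, 11.2 to 23.1 after MG132 and 9.2 to 10.9 in controls. With CD68 it was 81.3 to 140.1, 75.4 to 110.2, 77.0 to 143.8 and 110.1 to 137.3 FPKM in the same order. CD68, a marker on this list, was thus clearly detected and made up most of the sum.

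Untreated cells already carried much of the NF-kB machinery and a few cytokines. Of the 45 members, 10 had a control mean of at least 10 FPKM, among them RELA (107 ± 13.7 FPKM, SD, n = 3), the cytokine LIF (106 ± 7.67) and SOD2 (69.2 ± 8.30). The inhibitor NFKBIA followed with 41.2 ± 5.61 FPKM, then NFKB2 with 32.3 ± 2.19, CSF1 with 28.1 ± 1.24, TNFAIP2 with 22.9 ± 2.40, IL1B with 18.4 ± 1.28, NFKB1 with 17.2 ± 0.562 and IL11 with 10.5 ± 0.491 FPKM. The chemokines were scarce by contrast: the highest control mean among the 15 was 1.66 ± 0.216 FPKM, for CXCL16. A control mean under 2 FPKM was found for 27 members and one under 1 FPKM for 18. In such bulk RNA a change in the number of cells that make a transcript and a change in RNA per cell cannot be told apart.

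In this table a gene without reads holds a small positive value that follows the depth of the library, called the floor here. At the floor in every library judged were 9 members, namely TNF, CSF3, CXCL5, CXCL10, CXCL11, CXCL12, CCL7, VCAM1 and MMP10. TNF, a classical inducer of NF-kB, was listed at 0.09, 0.11 and 0.11 FPKM after reversine, 0.10, 0.13 and 0.11 after BafA1, 0.11, 0.09 and 0.10 after MG132, and 0.09, 0.10 and 0.08 in controls. CXCL10 and CXCL11, chemokines induced by interferon, lay at 0.09 to 0.15 and 0.23 to 0.35 FPKM over all libraries. CSF3 and CXCL12 passed the filter because their floor exceeds 1 FPKM, so their tests compare values without reads. Another 6 members were above the floor in some library but too low to be tested, namely CXCL1, CXCL6, CCL5, REL, ICAM1 and MMP1. That leaves 32 members tested and 13 not tested.

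**Figure D1:**
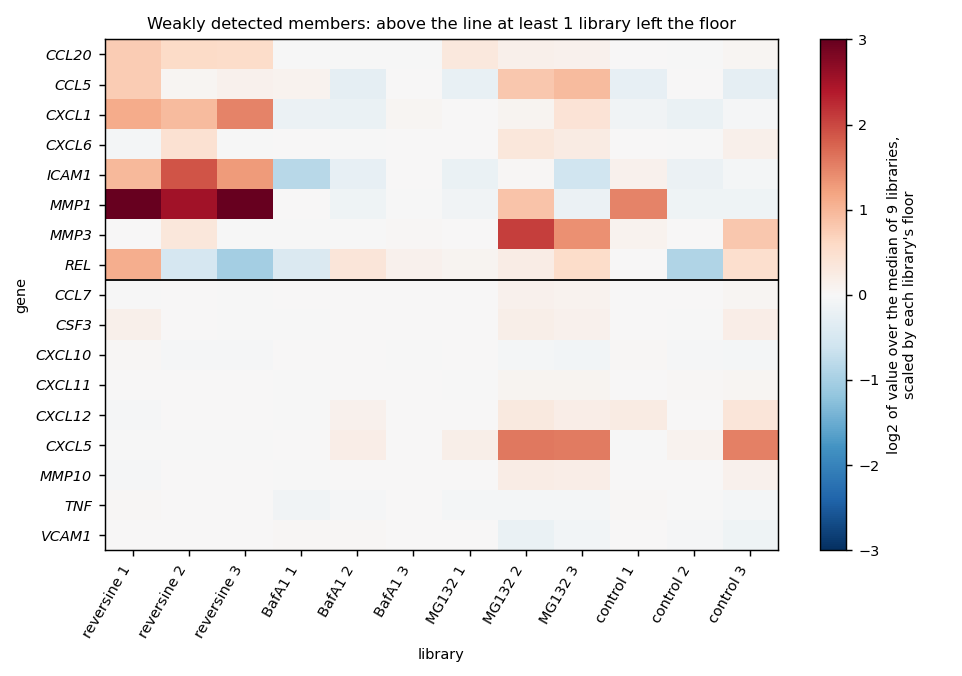
Heat map of weakly detected members (rows) in each library (columns): colour gives the log2 ratio of the FPKM value, scaled by the floor of the library, to the median of 9 libraries, and the scale is capped at 3. Members above the line left the floor in at least 1 library, with CXCL1, ICAM1 and MMP1 red in all 3 reversine libraries, and the pale rows below it are the 9 members at the floor, where CXCL5 departs in MG132 2, MG132 3 and control 3, the libraries with most genes at 0.

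After reversine, 6 of the 8 chemokines tested, 4 of the 11 cytokines and 1 of the 10 NF-kB genes rose. Of the 45 members, 11 were called higher and 0 lower than in control, where 0.801% of all genes tested were called higher and 1.29% lower. The 11 were the cytokines IL1B, IL6, CSF1 and CSF2, the chemokines IL8, CXCL2, CXCL3, CCL2, CCL3 and CCL20, and the NF-kB gene NFKBIZ. The median difference was 1.354 over the tested chemokines, 0.739 over the cytokines and 0.673 over the NF-kB genes, and these groups were not tested against each other. None of the 3 tested effectors and proteases was called. The median difference over the 32 tested members was 0.673, against 0.093 over all genes tested, and 22 of the 32 had reversine libraries above all controls and 0 below them, against 9.97% and 10.1% of all genes. These counts and medians hold only members that passed the filter, which were 8 of the 15 chemokines and 10 of the 11 NF-kB genes. In a fit without the filter, the 7 chemokines left out had differences from -0.03 (CXCL5) to 0.57 (CXCL1). The medians therefore do not rank the roles. IL1A passed it through the reversine and MG132 libraries alone, and CXCL2 and CCL3 would not have passed it without the libraries of these groups. CCL20 would not have passed it without the reversine libraries. With no filter CXCL2 and CCL3 kept their calls after reversine.

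IL1B (ENSG00000125538), the secreted agonist of the IL1 receptor, changed most clearly. It was at 119, 151 and 129 FPKM after reversine, 20.2, 20.8 and 26.7 after BafA1, 11.1, 11.98 and 11.8 after MG132, and 19.0, 16.9 and 19.2 in controls. The lowest reversine library was more than 4 times the highest library of any other group. The difference from control was 2.79 ± 0.152 (log2, SE), with limma adjusted p = 0.000108, or a 7.24-fold higher mean. IL1A, the second agonist, had 2.52, 1.72 and 1.46 FPKM after reversine and 0.25, 0.23 and 0.18 in controls. The groups did not overlap, but IL1A missed the threshold (1.23 ± 0.270, adjusted p = 0.0560). It was called in 4 of the alternatives, and on the scale of log2(FPKM + 0.1) its difference was 2.62 (adjusted p = 0.0108). IL1RN, which encodes the antagonist of the same receptor, stood at 3.16 ± 0.130 FPKM after reversine and 2.13 ± 0.251 in controls (0.41, adjusted p = 0.210).

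IL6 (ENSG00000136244), which signals through gp130, had 8.79, 6.72 and 6.76 FPKM after reversine, 1.94, 2.42 and 2.56 after BafA1, 3.39, 4.31 and 4.19 after MG132, and 2.00, 3.28 and 1.87 in controls. All reversine libraries were at least 6.72 FPKM, and no other library exceeded 4.31. It rose by 1.33 ± 0.215 (adjusted p = 0.0134). CSF2, a growth factor of granulocytes and macrophages, had 6.91, 8.01 and 5.15 FPKM after reversine and 0.96, 0.55 and 2.05 in controls, without overlap (1.85 ± 0.356, adjusted p = 0.0312). CSF1, the growth factor of macrophages, rose to 47.4, 64.8 and 61.7 FPKM after reversine, against 26.7, 28.8 and 28.9 in controls (1.01 ± 0.155, adjusted p = 0.0111).

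The other cytokines did not pass the test after reversine. IL32 was at 14.4 ± 1.42 FPKM after reversine and 8.22 ± 1.09 in controls (0.74, adjusted p = 0.0815). LIF, a cytokine of the IL6 family, stood at 114, 201 and 176 FPKM after reversine and 112, 97.7 and 109 in controls, so that reversine 1 lay just above the highest control (0.58, adjusted p = 0.439). IL11 and IL15 overlapped between the groups, with differences of 0.10 (95% interval -0.39 to 0.60) and 0.15 (-0.68 to 0.97).

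The chemokines gave the widest differences. IL8 (ENSG00000169429), the main attractant of neutrophils, was at 30.3, 20.1 and 17.5 FPKM after reversine, 1.06, 0.82 and 2.18 after BafA1, 2.31, 9.0 and 9.0 after MG132, and 1.33, 0.94 and 1.03 in controls. Reversine libraries were all above the 2 high MG132 libraries, and BafA1 libraries overlapped the controls. Its difference of 3.46 ± 0.443 from control (adjusted p = 0.00445) was the highest of any member. CCL3 (ENSG00000006075), an attractant of monocytes and T cells, had 9.95, 13.9 and 15.8 FPKM after reversine, 0.29, 0.82 and 0.46 after BafA1, 7.69, 7.83 and 7.63 after MG132, and 0.37, 1.68 and 0.50 in controls. Reversine and MG132 libraries both stood clear of the rest, and the difference of reversine from control was 2.99 ± 0.284 (adjusted p = 0.00117). CCL3 shares sequence with the copies CCL3L1 and CCL3L3, so its value depends on how ambiguous reads were divided. CCL3L1 was at 1.40 to 2.23 FPKM after reversine and 1.96, 1.93 and 5.19 in controls. The highest of these was in control 3, a library with many genes at 0.

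CCL2 (ENSG00000108691), the attractant of monocytes, had 5.68, 4.99 and 4.65 FPKM after reversine, 1.73, 2.16 and 1.12 after BafA1, 0.76, 0.87 and 1.14 after MG132, and 0.93, 1.04 and 1.06 in controls. Only the reversine libraries exceeded 2.16 FPKM, and the difference from control was 1.60 ± 0.153 (adjusted p = 0.00117). The ligands of CXCR2 on neutrophils form a cluster with IL8 and are close paralogs, so their reads may be shared. CXCL2 (ENSG00000081041) had 4.08, 4.33 and 3.87 FPKM after reversine and 0.79, 0.90 and 0.75 in controls (1.49 ± 0.149, adjusted p = 0.00131). CXCL3 (ENSG00000163734) had 3.33, 2.75 and 5.23 FPKM after reversine and 1.07, 1.05 and 0.89 in controls (1.22 ± 0.1995, adjusted p = 0.0138). CXCL1 was under the filter, but its 0.84, 0.95 and 1.35 FPKM after reversine were above its 0.36, 0.39 and 0.36 FPKM in controls, and in a fit without the filter it was called (0.57, adjusted p = 0.0135). CXCL5 and CXCL6, also of the cluster, were under 1 FPKM in every library.

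CCL20, the ligand of CCR6, had 1.16, 1.28 and 1.27 FPKM after reversine and 0.69, 0.78 and 0.69 in controls. Its control values were at the floor, so the called difference of 0.38 ± 0.0687 (adjusted p = 0.0236) is between a weakly detected and an undetected transcript. CCL20 was tested only because its reversine libraries reached 1 FPKM, and with no filter it was not called, so its call is no support for a change. CXCL16, a chemokine made as a membrane protein, was at 3.01 ± 0.692 FPKM after reversine and 1.66 ± 0.216 in controls (0.58, adjusted p = 0.114). CCL5, an attractant of T cells, stayed under 1 FPKM in every library.

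**Figure D2:**
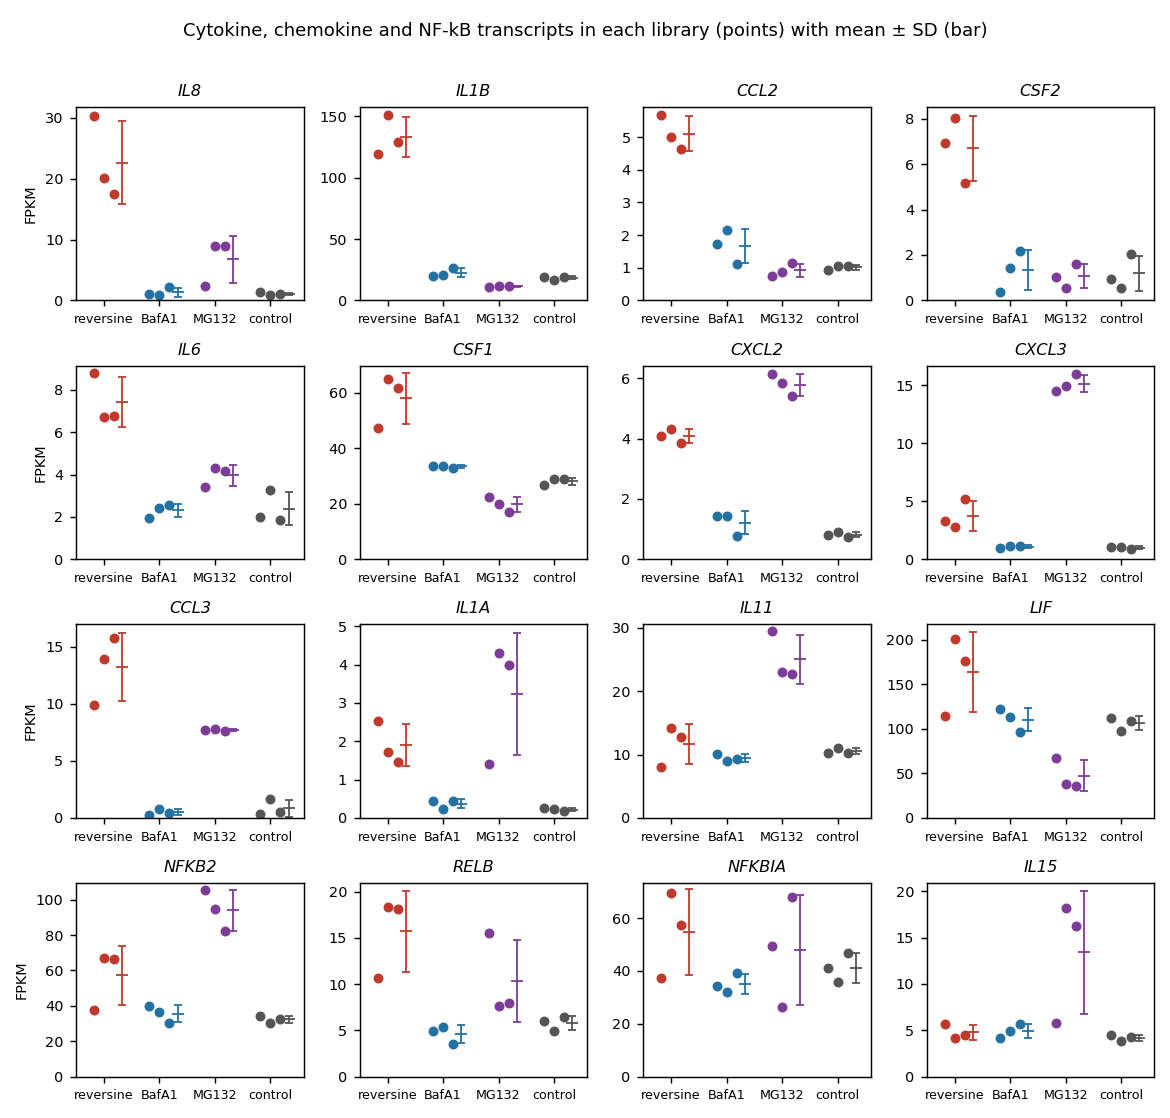
FPKM (vertical axis, linear, a scale for each gene) of 16 members in each library, in the order reversine, BafA1, MG132 and control; points are libraries and the bar beside them is the mean ± SD of the 3. IL8, IL1B, CCL2, CSF2, IL6 and CSF1 are highest in reversine libraries, CXCL2, CXCL3, IL11 and NFKB2 in MG132 libraries, and BafA1 points lie near the controls.

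Among the NF-kB genes, NFKBIZ was the single call after reversine. NFKBIZ encodes a nuclear member of the IκB family that in mouse macrophages is needed for IL6 transcription. It had 17.3, 21.5 and 17.1 FPKM after reversine and 8.95, 8.17 and 8.70 in controls, so all reversine libraries were above all controls (1.02 ± 0.208, adjusted p = 0.0411). RELB had 10.6, 18.3 and 18.2 FPKM after reversine and 6.05, 4.98 and 6.49 in controls, and NFKB2 had 37.9, 67.3 and 66.4 FPKM after reversine and 34.5, 30.1 and 32.4 in controls. In both, reversine 1, which gave lower values for GC-rich transcripts, was the lowest of its group, and neither gene passed (RELB 1.26, adjusted p = 0.0990, and NFKB2 0.76, adjusted p = 0.159). Without reversine 1, NFKB2 was called (1.03, adjusted p = 0.0155) and RELB was not. The part of GC content in these values was not tested. NFKBIA was at 54.7 ± 16.3 FPKM after reversine and 41.2 ± 5.61 in controls, with overlap (0.36, 95% interval -0.39 to 1.12).

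The remaining NF-kB genes did not pass either. TNFAIP3, an enzyme that removes activating ubiquitin chains, had 9.24, 8.64 and 5.68 FPKM after reversine and 5.38, 3.41 and 5.46 in controls (0.62, adjusted p = 0.404). BIRC3, a ubiquitin ligase of the TNF receptor complex, was at 3.05 ± 0.316 FPKM after reversine and 1.45 ± 0.512 in controls (0.74, adjusted p = 0.0915). NFKBIE, another IκB, was at 16.1 ± 4.02 FPKM after reversine and 9.15 ± 0.972 in controls (0.73, adjusted p = 0.256). RELA and NFKB1, the subunits of the classical dimer, had differences of -0.07 (95% interval -0.77 to 0.63) and -0.01 (-0.33 to 0.31), and TNFAIP2 one of 0.20 (-0.23 to 0.63). REL, the third activating subunit, ranged from 0.32 to 1.11 FPKM over all libraries.

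SOD2, the superoxide dismutase of mitochondria, had 79.8, 123 and 112 FPKM after reversine and 70.7, 60.2 and 76.6 in controls, without overlap, and was not called (0.58, adjusted p = 0.241). PTGS2, the inducible cyclooxygenase, was at 1.45 ± 0.469 FPKM after reversine and 0.910 ± 0.243 in controls, with overlap (0.35, adjusted p = 0.439). A pair of genes under the filter stood out by their values. ICAM1, which binds leukocyte integrins, had 0.43, 1.01 and 0.66 FPKM after reversine and 0.24, 0.22 and 0.20 in controls. MMP1, the interstitial collagenase, had 0.70, 0.41 and 0.83 FPKM after reversine and 0.16, 0.06 and 0.05 in controls. In both, every reversine library exceeded every other library of the study. Without the filter MMP1 was called (0.59, adjusted p = 0.0102) and ICAM1 was not (0.46, adjusted p = 0.0825). MMP3, a stromelysin, did not differ detectably after reversine (-0.01, 95% interval -0.62 to 0.60), and its 2 rows in the table share reads. In the 9 libraries judged it lay within 0.33 log2 units of the floor, so this interval compares values with few or no reads.

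Of the 11 calls after reversine, IL1B, IL8, CCL2, CCL3 and CXCL2 were kept when any single reversine or control library was left out, with adjusted p of at most 0.0279. The other 6 lost their calls without some libraries, with differences close to those of all libraries. IL6 lost its call without control 1 or control 3 (adjusted p up to 0.0828), with differences of 1.22 to 1.51 over the 6 omissions. CSF1 lost it without control 1, control 3 or reversine 2 (up to 0.0670, differences 0.92 to 1.14), and CXCL3 without any one of the 3 controls (up to 0.0754, differences 1.01 to 1.38). CSF2 lost it without control 1, control 2 or any one reversine library (up to 0.139, differences 1.64 to 2.12), and CCL20 without any one control, reversine 2 or reversine 3 (up to 0.141, differences 0.36 to 0.40). NFKBIZ lost it without any one of the 6 (up to 0.157, differences 0.92 to 1.08). In a fit of the reversine and control libraries alone, which has fewer libraries to estimate the spread, IL1B was the single call.

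After BafA1, no member was called higher or lower than in control by limma, against 0.202% and 0.0619% of all genes tested. The 32 tested members had differences between -0.35 and 0.42 and a median of 0.100, where the median of all genes was 0.141. At an unadjusted p under 0.05 there were 2, both higher: IL1RN, at 3.12, 3.02 and 3.38 FPKM after BafA1 and 1.84, 2.27 and 2.28 in controls (0.42, adjusted p = 0.467), and CCL2, at 1.73, 2.16 and 1.12 FPKM after BafA1 and 0.93, 1.04 and 1.06 in controls (0.39, adjusted p = 0.478). In both genes the BafA1 libraries were above all controls. Scaled by the floor of each library, the groups overlapped. IL1RN was then at -0.29 to 0.16 log2 units after BafA1 and -0.40 to -0.02 in controls. CCL2 was at -0.65 to 0.01 and -0.64 to -0.35. This scaling suits values without reads. For a transcript with reads it undoes the depth scaling of FPKM and lowers the shallower BafA1 libraries relative to controls. The overlap is therefore no evidence that the groups were alike, and the part of library depth was not tested. Libraries of BafA1 lay above all controls for 8 members and below them for 2, against 15.7% and 7.42% of all genes.

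The intervals limit what BafA1 could have changed at this precision. For IL1B, at 22.6 ± 3.62 FPKM after BafA1 and 18.4 ± 1.28 in controls, the difference was 0.28 (95% interval -0.07 to 0.62), and for IL6 it was -0.01 (-0.50 to 0.47). IL8 was less well fixed, at 0.13 (-0.87 to 1.12), as were CSF2 at 0.08 (-0.73 to 0.88) and CCL3 at -0.23 (-0.87 to 0.41). These values exclude neither a small change nor, for IL8, one of 2-fold on the log2(FPKM + 1) scale. For IL8, CSF2 and CCL3, with control means of 1.10, 1.19 and 0.85 FPKM, this scale understates changes. The limits in FPKM itself are therefore wider for these genes.

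After MG132, the widest differences were those of the chemokines CXCL3 and CCL3. Of the 45 members, 10 were called higher and 2 lower than in control, where 7.14% of all genes were called higher and 7.67% lower. Higher were CXCL2, CXCL3, CCL3 and IL8 among the chemokines, IL1A, IL11, IL15 and IL32 among the cytokines, and NFKB2 and BIRC3 among the NF-kB genes. LIF and IL1B were lower, a share of the members below that of all genes called lower, so only the higher calls exceeded their background. CXCL2, CCL3 and IL1A would not have passed the filter without the reversine and MG132 libraries. With no filter each kept its call after MG132. The median over the 32 tested members was 0.323, against 0.039 over all genes, and 16 members lay above and 4 below all controls, against 20.3% and 13.5% of all genes. In the same libraries 3 of 4 epithelial keratins were called lower, with a summed level of 476.1 to 726.4 FPKM after MG132 and 1298.8 to 1463.1 in controls, and the part of that shift in the results was not tested.

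CXCL3 had 14.5, 14.9 and 16.0 FPKM after MG132, and 1.07, 1.05 and 0.89 in controls. This difference of 3.01 ± 0.1995 (adjusted p = 3.1e-05) was the highest of any member after MG132 and its libraries were close together. CXCL2 had 6.13, 5.83 and 5.40 FPKM after MG132 and 0.79, 0.90 and 0.75 in controls (1.90 ± 0.149, adjusted p = 7.08e-05). The promoters of this pair, printed above, share the motif with CXCL1, which was under the filter. CXCL1 had 0.51, 0.44 and 0.61 FPKM after MG132 and 0.36, 0.39 and 0.36 in controls, without overlap. In a limma fit without the filter it was not called (0.15, adjusted p = 0.217). CCL3 had 7.69, 7.83 and 7.63 FPKM after MG132 and 0.37, 1.68 and 0.50 in controls (2.30 ± 0.284, adjusted p = 0.000822). Its copy CCL3L1 was listed at 2.20, 51.3 and 16.4 FPKM after MG132 and 1.96, 1.93 and 5.19 in controls. CCL3 itself was level across the 3 MG132 libraries. The highest CCL3L1 values were in MG132 2, MG132 3 and control 3, the libraries with most genes at 0. A rise of CCL3L1 after MG132 cannot be told apart from a trait of these libraries. CCL2, by contrast, overlapped between MG132 and control (-0.07, 95% interval -0.41 to 0.28).

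NFKB2 (ENSG00000077150), the precursor that the proteasome trims, had 105, 94.4 and 82.2 FPKM after MG132, 39.9, 36.5 and 30.3 after BafA1, and 34.5, 30.1 and 32.4 in controls. All MG132 libraries were above every other library of the study, and the difference from control was 1.51 ± 0.223 (adjusted p = 0.00220). BIRC3 was at 1.99, 3.40 and 3.01 FPKM after MG132 and 1.10, 1.22 and 2.04 in controls. It overlapped and passed narrowly (0.63 ± 0.185, adjusted p = 0.0499). The brakes NFKBIA, TNFAIP3 and NFKBIE did not pass, with differences of 0.12 (95% interval -0.64 to 0.88), -0.06 (-0.67 to 0.54) and -0.21 (-0.79 to 0.36). NFKBIA varied widely among the MG132 libraries, with 49.3, 26.2 and 67.99 FPKM, as did RELA with 150, 89.8 and 223 FPKM.

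IL11 (ENSG00000095752), a cytokine of the IL6 family, had 29.5, 22.9 and 22.7 FPKM after MG132, 8.07, 14.1 and 12.8 after reversine, and 10.2, 11.1 and 10.2 in controls. MG132 libraries were all above the rest, and the difference from control was 1.17 ± 0.219 (adjusted p = 0.00727). LIF moved the other way, to 67.3, 38.4 and 36.2 FPKM after MG132, against 112, 97.7 and 109 in controls (-1.21 ± 0.265, adjusted p = 0.0153). IL1B fell to 11.1, 11.98 and 11.8 FPKM after MG132, against 19.0, 16.9 and 19.2 in controls, without overlap (-0.62 ± 0.152, adjusted p = 0.0252). IL1A rose instead, to 1.40, 4.30 and 3.98 FPKM after MG132, against 0.25, 0.23 and 0.18 in controls (1.71 ± 0.270, adjusted p = 0.00301). IL32 had 16.4, 20.5 and 17.6 FPKM after MG132 and 7.38, 9.45 and 7.82 in controls (1.06 ± 0.179, adjusted p = 0.00438). CSF1 was at 19.8 ± 2.74 FPKM after MG132 and 28.1 ± 1.24 in controls, without overlap, and was not called (-0.49, adjusted p = 0.0643).

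**Figure D3:**
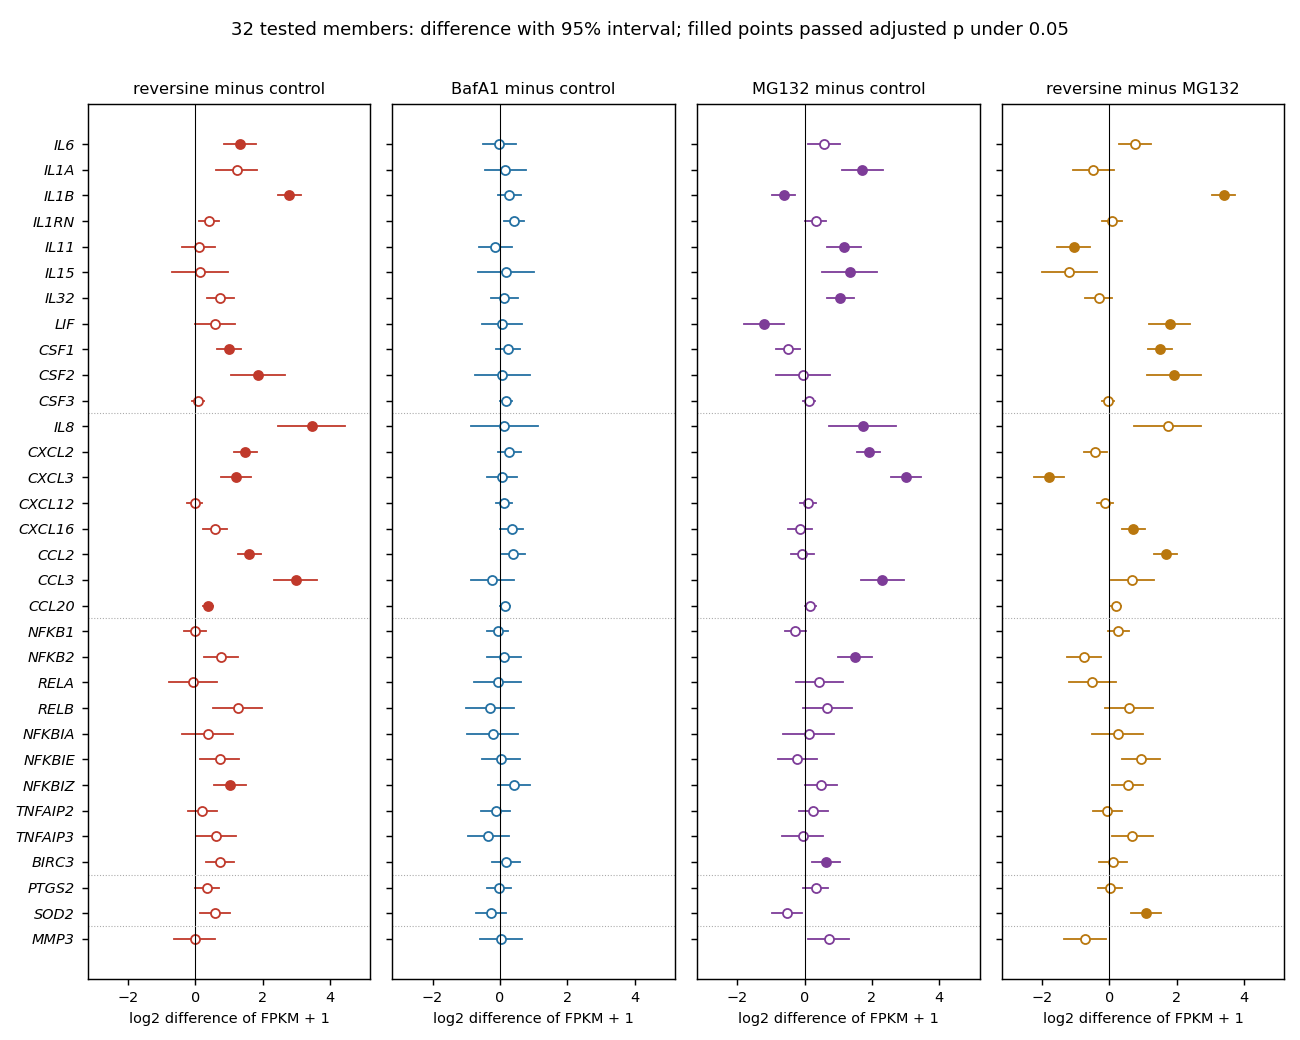
Differences of log2(FPKM + 1) (horizontal axis) with 95% intervals for the 32 tested members (rows, by role) in 4 comparisons: reversine minus control, BafA1 minus control, MG132 minus control, and reversine minus MG132. Filled points passed adjusted p under 0.05: 11, 0, 12 and 9 members.

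The MG132 libraries were not alike for every member, and MG132 1 often stood apart from MG132 2 and MG132 3, which gave lower values for GC-rich transcripts. IL8 had 2.31 FPKM in MG132 1 against 9.0 in both others, and IL15, a growth factor of natural killer cells, had 5.83 FPKM in MG132 1 against 18.2 and 16.3. Controls held 4.48, 3.85 and 4.31 FPKM of IL15, so MG132 1 was close to them. RELB went the other way, with 15.5 FPKM in MG132 1 against 7.61 and 7.99. Of the 7 tested members with a transcript GC content under 45%, 6 were higher in MG132 2 and 3 than in MG132 1 (median 0.49 on the log2 scale), and of the 23 at or over 45%, 8 were higher (median -0.09). The calls of IL8 (1.72, adjusted p = 0.0299) and IL15 (1.33, adjusted p = 0.0390) rested on MG132 2 and 3. In MG132 1 alone both exceeded every control, by 0.66 and 0.39 log2 units over the control mean. The part of GC content in these differences was not tested.

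**Figure D4:**
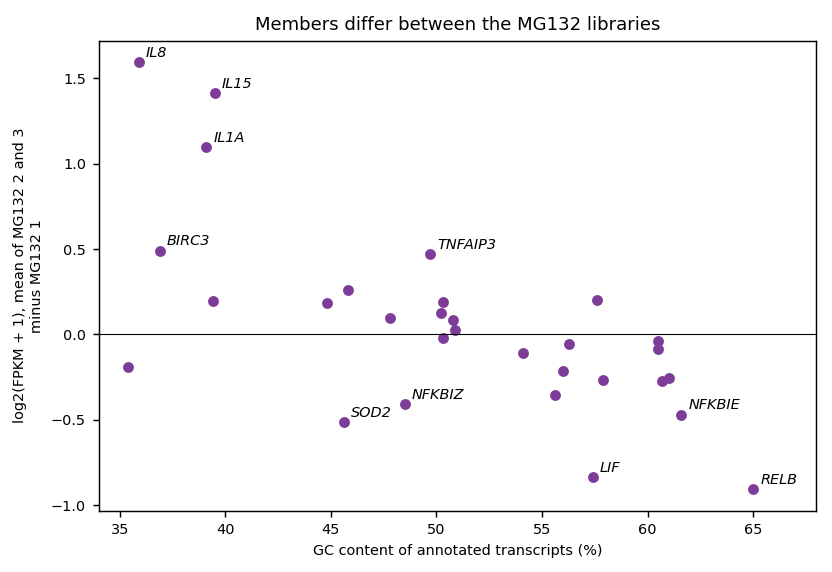
Mean log2(FPKM + 1) of MG132 2 and 3 minus that of MG132 1 (vertical axis) against the GC content of the annotated transcripts in percent (horizontal axis), 1 point for each of 30 tested members with a GC content. IL8, IL15 and IL1A, with GC contents under 40%, lie highest, and LIF and RELB lie lowest.

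Of the 12 calls after MG132, CXCL2, CXCL3, CCL3, NFKB2, IL1A, IL11 and IL32 were kept when any single MG132 or control library was left out, with adjusted p of at most 0.0342. The call of IL15 was lost without any one control, MG132 2 or MG132 3 (adjusted p up to 0.137), and that of IL8 without the same libraries (up to 0.110). BIRC3 lost it without control 1, control 2, MG132 2 or MG132 3 (up to 0.172), and LIF and IL1B without control 1, control 3, MG132 2 or MG132 3 (up to 0.0700 and 0.0948). Without MG132 1, the difference of IL8 grew to 2.26 and that of IL15 to 1.81. Without the 4 libraries that gave lower values for GC-rich transcripts, IL8 (0.66), IL15 (0.39), IL32 (0.92), BIRC3 (0.31), LIF (-0.65) and IL1B (-0.68) lost their calls against control, and RELB gained one (1.28). When control 3, MG132 2 and MG132 3 were all left out, an alternative chosen after seeing the data, CXCL2 and CXCL3 were the only calls among the members, and MG132 1 was then assumed to vary like the other groups.

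The comparisons with control share the same 3 control libraries, so the treatments were also set against each other. Between reversine and MG132, 7 members were called higher after reversine and 2 lower, against 3.52% and 2.99% of all genes. IL1B was 3.40 ± 0.152 higher after reversine (adjusted p = 8.76e-06), CCL2 1.67 ± 0.153 higher (adjusted p = 0.000294), and CSF1 1.50 ± 0.155 higher (adjusted p = 0.000553). CSF2, LIF, SOD2 and CXCL16 were higher as well, by 1.91, 1.79, 1.09 and 0.72. CXCL3 and IL11 were lower after reversine than after MG132, by -1.79 ± 0.1995 (adjusted p = 0.000856) and -1.06 ± 0.219 (adjusted p = 0.0207). Of the 4 members called higher than control in both, CXCL3 passed the test between the treatments. For CCL3, IL8 and CXCL2 the differences were 0.68 (95% interval 0.04 to 1.32), 1.73 (0.74 to 2.73) and -0.41 (-0.75 to -0.08) and did not pass after adjustment (adjusted p = 0.140, 0.0508 and 0.0942). IL8 was called in 6 of the alternatives, median-ratio scaling among them (1.91, adjusted p = 0.0261). In this comparison the median of all genes moved from -0.008 by 0.144 log2 units under median-ratio scaling, and no called member changed its sign.

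Between reversine and MG132, IL1B and CCL2 kept their calls in every alternative that was run, and CSF1, CXCL3 and LIF when any one library of either group was left out. CSF2 lost its call without reversine 2 or MG132 2 (adjusted p up to 0.0612, differences over all omissions 1.72 to 2.09), and SOD2 without reversine 2, MG132 2 or MG132 3 (up to 0.0628, differences 0.97 to 1.28). IL11 lost it without MG132 2 or MG132 3 (up to 0.0671, differences -1.21 to -0.84), and CXCL16 without reversine 2, reversine 3, MG132 2 or MG132 3 (up to 0.105, differences 0.63 to 0.87). Without MG132 1, the count of members called was 18 in place of 9, and without MG132 2 it was 5.

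Against BafA1, reversine gave 7 members higher and 0 lower, against 0.443% and 0.785% of all genes: IL1B, CCL3, CXCL2, CCL2, IL8, IL6 and CXCL3. IL1B differed by 2.51 ± 0.152 (adjusted p = 0.000220) and CCL3 by 3.21 ± 0.284 (adjusted p = 0.000933). CXCL3 (1.16, adjusted p = 0.0267) and IL6 (1.34, adjusted p = 0.0184) were called only narrowly: IL6 was lost without any one of the 6 libraries, with differences of 1.23 to 1.40, and CXCL3 without any one but reversine 2, with differences of 0.95 to 1.31. IL8 was lost without BafA1 1 (adjusted p = 0.0521). MG132 gave 7 members higher and 3 lower than BafA1, against 4.49% and 6.37% of all genes. Higher were CXCL3 (2.95 ± 0.1995, adjusted p = 3.82e-05), CXCL2, CCL3, NFKB2, IL11, IL1A and IL32. Lower were IL1B (-0.89 ± 0.152, adjusted p = 0.00515), LIF (-1.26) and CSF1 (-0.73). LIF and CSF1 lost their calls without BafA1 1, BafA1 2, MG132 2 or MG132 3, and IL32 without MG132 2.

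Set side by side, the 18 members called in at least 1 comparison with control fell into few patterns. CCL3, CXCL2, CXCL3 and IL8 were called higher after both reversine and MG132. IL1B was called higher after reversine and lower after MG132. CCL2, CCL20, CSF1, CSF2, IL6 and NFKBIZ were called after reversine alone, and BIRC3, IL11, IL15, IL1A, IL32, NFKB2 and LIF after MG132 alone. A call in one comparison and not in the other does not show a difference: of these 13, CCL2, CSF1, CSF2, IL11 and LIF also passed the direct test of reversine against MG132. IL1A, though not called after reversine, lay above all controls after both treatments.

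Genes around the set were called after reversine in 4 of 5 lists, where 0.801% of all genes were called higher and 1.29% lower. Of 35 tested receptors, adaptors and kinases upstream of NF-kB, 2 rose after reversine and none fell. They were TRAF1, an adaptor of TNF receptors (1.02 ± 0.229 FPKM after reversine and 0.397 ± 0.0924 in controls), and IRAK2, a kinase of IL1 receptor signalling (4.71 ± 0.617 and 2.26 ± 0.142 FPKM). Of 15 further brakes and cofactors, TNIP1, which works with TNFAIP3, was the single call (92.4 ± 3.45 FPKM after reversine and 57.4 ± 3.83 in controls), and none of 11 tested cytokine and chemokine receptors passed. Of 29 other secreted factors tested, 5 rose and none fell, among them SERPINB2 (1.30), MMP2 (0.75) and IGFBP5 (1.40). Of 15 partner transcription factors, EGR1 (1.97), FOSB (0.93), ATF3 (2.055) and JUNB (1.22) rose and FOSL1, named after its values were seen as the single lower call, fell (-0.89).

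After MG132 the same lists held calls in both directions, where 7.14% of all genes were called higher and 7.67% lower. Upstream, 4 genes rose and 5 fell of 35, with TRAF1 at 2.31 ± 0.170 FPKM after MG132 and 0.397 ± 0.0924 in controls, and with CARD10 (-1.87), MYD88 (-1.33) and TNFRSF1B (-2.18) lower. Of 15 brakes and cofactors, 4 rose and 2 fell, with TNIP1 (0.70) and CYLD (2.01) higher and SIGIRR (-1.68) and BCL3 (-1.40) lower. Among the receptors OSMR rose (1.50) and CSF1R fell (-1.08). Of 29 other secreted factors, 3 rose and 11 fell: CCL26, an eotaxin, had 58.8 ± 6.16 FPKM after MG132 and 1.78 ± 0.409 in controls, while PLAU (-3.38), PLAT (-4.46) and TIMP3 (-2.12) were lower. Of the partner factors, 3 rose and 4 fell, with FOSB (1.46), ATF3 (2.20) and CEBPB (1.16) higher and FOSL1 (-1.49) lower. After BafA1 the single calls in these lists were 3 secreted factors, all lower, among them SERPINB2 (-2.44) and INHBA (-1.18).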

How the data were processed

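RNA was sequenced from 12 hTERT-RPE1 libraries, 3 per group, as oligo(dT)-selected, 50 nt reads, per the labels' protocols. Per the submitters' processing notes, Bowtie 1.0.0 and RSEM 1.2.6 were used with hg19 (GRCh37). The deposited table holds 53361 genes, and its header names no unit. The deposited numbers hold decimals, which alone does not exclude counts estimated by RSEM, and since their column totals differ they are not TPM. The authors' values, made with RSEM per the submitters' processing notes, are treated as FPKM, which is an assumption. Whole read counts are not held in the deposited table, so no counting interval was possible. No strand setting is given in the sources used here, so overlapping and antisense genes are uncertain. Near-identical copies are uncertain too.

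Genes with at least 1 FPKM in 3 libraries (30712) were tested with limma 3.58.1 (trend) in R 4.3.3 on log2(FPKM + 1), in one fit of the 4 groups without covariates (8 residual and 1.26 prior degrees of freedom), in 6 comparisons, with Benjamini-Hochberg adjustment over all genes. No scaling was added. The fit was tested on simulated data for reversine against control. Changes were placed only in genes with a control mean above 2 on the log2(FPKM + 1) scale. Of changes of 1, 2 and 3 log2 units in 67, 67 and 66 genes, 14.9%, 50.7% and 45.5% were called. These rates do not describe the 27 members with a control mean under 2 FPKM. Of unchanged genes 0.0172% were called. A member that did not pass may therefore still have changed. The floor was set from 3843 genes with a mean of 0.05 to 0.2 FPKM that agree in profile within 0.2 log2 units, and a member was at the floor within 0.25 log2 units of it in the 9 libraries with few zeros. These tolerances were chosen after the values were seen. GC trends used 14010 genes with at least 1 FPKM in every library and GC content from GENCODE v29. Promoters came from RefSeq, with no coordinates taken from the deposited table.

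Members, lists and tests were chosen with earlier results of these data known. Every member is named, and for each neighbouring list up to 4 called genes with the smallest adjusted p are named per comparison. Some genes of these lists are not reported here by name. Alternatives were log2(FPKM + 0.1), no filter, at least 5 FPKM in 3 libraries, median-ratio scaling, summed rows of a symbol, 2-group fits, and leaving out single libraries, the 4 libraries that fall with GC content, or, chosen after seeing the data, the 3 libraries with most genes at 0.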

Additional observations from a re-analysis of the deposited data

How the results depend on the processing

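No paired analysis was possible because the labels carry no replicate numbers. No called member changed direction in any alternative that was run. The counts of called members and genes stayed within 1.5 times the main count with log2(FPKM + 0.1), no filter, at least 5 FPKM in 3 libraries, median-ratio scaling and summed rows. Under median-ratio scaling the genes called after MG132 against control were 1644 higher and 2883 lower, in place of 2192 and 2357, those of reversine against BafA1 176 and 170 in place of 136 and 241, those of reversine against MG132 1528 and 626 in place of 1082 and 918, and 0 called members changed sign. The main counts of genes called were 642, 81, 4549, 377, 2000 and 3334 for reversine, BafA1 and MG132 against control, reversine against BafA1, reversine against MG132 and MG132 against BafA1. In fits of only the 2 groups compared, members called were 1 for reversine against control, 0 for reversine against BafA1, 2 for reversine against MG132 and 5 for MG132 against BafA1. Genes called were then 11, 2, 256 and 1413 in these comparisons, 19 for BafA1 against control and 2751 for MG132 against control; such a fit has fewer libraries to estimate the spread. Without the 4 libraries that fall with GC content, which leaves 1 MG132 library that is assumed to vary like the other groups, members called were 7 for MG132 against control and 5 for reversine against MG132. Genes called were then 44 for BafA1 against control, 2576 for MG132 against control, 171 for reversine against BafA1, 945 for reversine against MG132 and 1753 for MG132 against BafA1. Without the 3 libraries with most genes at 0, members called were 7 for reversine against control, 2 for MG132 against control, 3 for reversine against MG132 and 3 for MG132 against BafA1. Genes called were then 130, 9, 530, 150, 215 and 530 for reversine, BafA1 and MG132 against control, reversine against BafA1, reversine against MG132 and MG132 against BafA1.

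Leaving out single libraries gave 5 to 11 called members for reversine against control (main 11; 5 without control 1, 6 without control 3, and 7 without control 2 or reversine 2), and 0 for BafA1 against control each time. It gave 7 to 15 for MG132 against control (main 12; 7 without control 1, MG132 2 or MG132 3), 4 to 9 for reversine against BafA1 (main 7; 4 without BafA1 1), 5 to 18 for reversine against MG132 and 7 to 16 for MG132 against BafA1 (main 10; 16 without MG132 1). Genes called ranged from 247 to 584, 19 to 34, 2435 to 13046, 142 to 317, 965 to 17101 and 1855 to 18445 in the same order. Without the filter all 45 members were tested, and of the 13 left out by it CXCL1 and MMP1 were called higher after reversine than in control, MMP1 higher than after BafA1, and CXCL1, ICAM1 and MMP1 higher than after MG132. Read depth is unknown.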
